A study of Homo sapiens with 6 samples.

Results

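Neutrophil granule proteins and the marker genes of the promyelocyte were followed in the human monocytic leukaemia line THP-1 with and without monensin. The set held 10 genes, chosen by name: MPO, ELANE, PRTN3, AZU1, CTSG, LYZ, SRGN, MS4A3, SERPINB10 and CEBPE. They were 10 of 58395 annotated genes, and all 10 were among the 16542 genes that passed the filter on low counts and were tested. THP-1 is an established line from an acute monocytic leukaemia. RNA was sequenced from 3 untreated samples and from 3 samples kept in 1 µM monensin for 16 h, the only dose and time. Monensin is an ionophore that exchanges sodium ions for protons across membranes and is widely used to disturb transport through the Golgi apparatus. Both groups were the same line in the same medium. No vehicle is named for the untreated cells, so the compound and its solvent cannot be told apart.

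Azurophil granules are storage organelles that myeloid precursors build at the promyelocyte stage. Their serine proteases (ELANE, PRTN3 and CTSG), the inactive protease relative AZU1, the peroxidase MPO and lysozyme (LYZ) are packed there on the proteoglycan serglycin (SRGN). Transcription of these genes is known to depend on factors such as C/EBPα, PU.1, MYB and RUNX1. That of the proteases, AZU1 and MPO normally ends before the cells mature. Monocyte precursors, from which THP-1 derives, make the same proteins at an early stage.

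Of the 10 genes, 6 fell in monensin (LYZ, MS4A3, SERPINB10, PRTN3, MPO and SRGN), 2 rose (AZU1 and CEBPE) and 2 did not pass the test (ELANE and CTSG), by edgeR's quasi-likelihood test at a Benjamini-Hochberg adjusted p under 0.05. The changes ran from a fall of LYZ to 37.0% of its untreated level and a 4.50-fold fall of SERPINB10 to rises of 1.35-fold for AZU1 and 1.40-fold for CEBPE. Within the protease cluster on chromosome 19, AZU1 rose while its neighbour PRTN3 fell and the next gene, ELANE, did not pass the test. Changes were common in the whole data set: 34.1% of tested genes were called raised and 33.7% lowered, against 20% and 60% of the 10 members. Lowering of at least 2-fold was less frequent, with 3.83% of tested genes and 3 of the 10 members (30%). The median log2 fold change was -0.54 over the members and 0.02 over all tested genes. The members were chosen with earlier results of these data known, so these comparisons describe the set and do not test it. The groups did not overlap for any of the 8 called members, while higher and lower groups without overlap made up 35.9% and 35.2% of all tested genes.

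**Figure D1:**
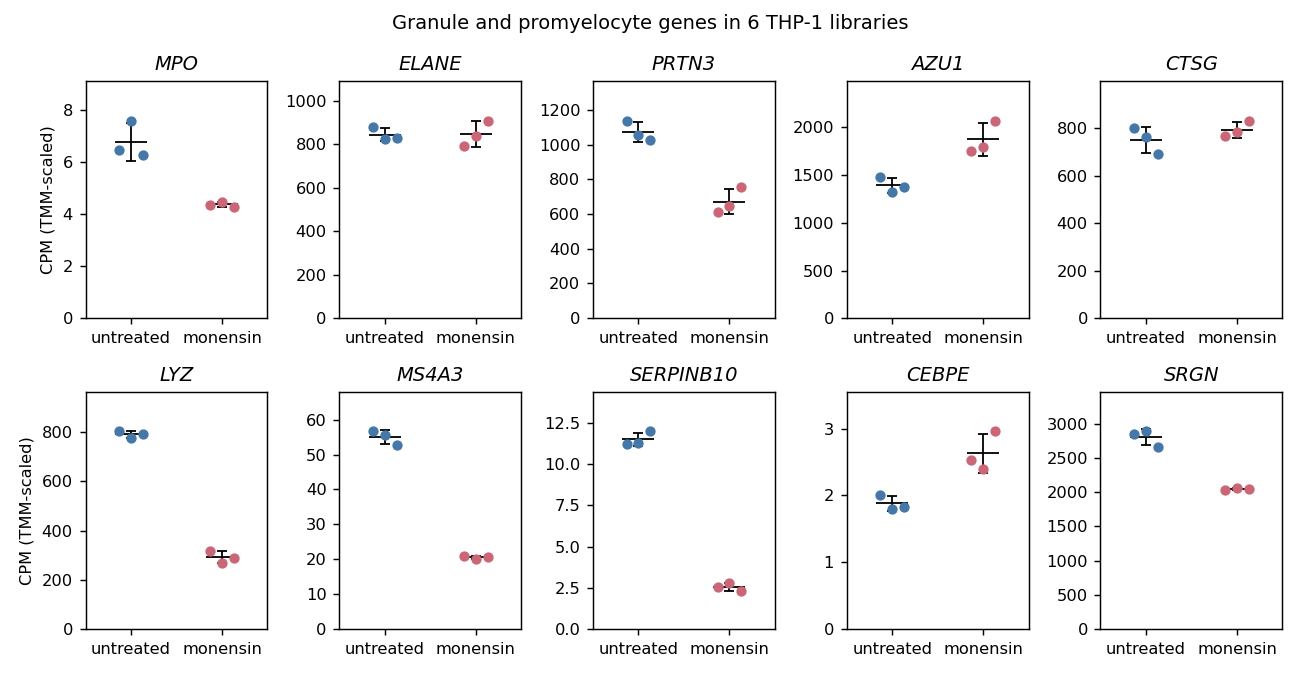
Level of each of the 10 genes in CPM (counts relative to the library total, scaled by TMM factors) in the 3 untreated (blue) and 3 monensin (red) libraries. Points are libraries, the long dash is the mean and the bars are 1 SD; each axis starts at 0. The points of the groups are apart in 8 panels and overlap for ELANE and CTSG.

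Per length of annotated exons, the members covered a wide range in untreated cells. SRGN was the highest at 2297 ± 96.7 RPKM (CPM per kilobase of exons, mean ± SD, n = 3). PRTN3 followed at 935 ± 51.5 RPKM, then ELANE at 821 ± 29.4 and AZU1 at 781 ± 43.7 RPKM, whose libraries overlapped, then CTSG at 548 ± 39.9 and LYZ at 448 ± 8.12 RPKM. These 6 genes lay between the 99.7th and 100th percentile of tested genes. MS4A3 stood at 26.3 ± 0.921 RPKM, SERPINB10 at 4.26 ± 0.151, MPO at 1.92 ± 0.203 and CEBPE at 1.21 ± 0.0723 RPKM. MPO was thus at the 36.8th percentile of tested genes, far below the proteases that share its granule. In monensin AZU1 moved from the fourth place to the second at 1052 ± 96.0 RPKM, above ELANE at 823 ± 58.2 RPKM. PRTN3 moved from the second to the fourth place at 585 ± 64.2 RPKM, where its libraries overlapped those of CTSG at 578 ± 24.6 RPKM. SERPINB10 became the lowest member at 0.944 ± 0.0902 RPKM. Neighbours in this order other than the overlapping pairs did not overlap in their libraries. The order depends on the annotated exonic length, which was 1783 bases for AZU1, 1146 for PRTN3 and 1028 for ELANE. In CPM, AZU1 was above both in untreated cells too, at 1393 ± 77.9 against 1072 ± 59.0 and 844 ± 30.2.

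The set matched a granule-making myeloid precursor only in part. The genes of the proteases and of SRGN were abundant, but MPO, a defining promyelocyte gene, was low. Summed, the 10 genes took 0.778%, 0.744% and 0.726% of gene counts in untreated libraries and 0.654%, 0.664% and 0.705% in monensin libraries, with the monensin libraries all below the untreated ones. SRGN alone took 0.272% ± 0.0103 and then 0.211% ± 0.00205. AZU1, PRTN3, ELANE and CTSG together took 0.394% ± 0.0197 and 0.430% ± 0.0298 (SD, n = 3), and the groups overlapped. In bulk RNA, fewer cells that express a gene and less RNA per cell cannot be told apart.

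Promoter sequence was at hand for 5 of the members (AZU1, PRTN3, MS4A3, CTSG and CEBPE) in a RefSeq table on GRCh38.p14. It is shown for the chromosome 19 neighbours AZU1 and PRTN3, because they moved in opposite directions, and for MS4A3, the member of the 5 with the deepest fall. The bases run 5′ to 3′ on the sense strand and stop before the first annotated exon. They are chr19:827587-827835 for AZU1, chr19:840749-840959 for PRTN3 and chr11:60056415-60056586 for MS4A3, all on the plus strand. The AZU1 bases lie inside the span of the GENCODE gene, which has a start further upstream, and overlap none of its exons. Capitals mark matches to C/EBP letters in all 3, to PU.1 letters in PRTN3 and to MYB letters in MS4A3.
AZU1: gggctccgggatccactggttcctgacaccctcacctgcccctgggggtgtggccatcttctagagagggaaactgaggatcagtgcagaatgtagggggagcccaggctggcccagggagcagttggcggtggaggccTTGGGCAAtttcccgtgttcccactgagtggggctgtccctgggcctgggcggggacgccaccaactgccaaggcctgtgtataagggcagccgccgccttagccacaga
PRTN3: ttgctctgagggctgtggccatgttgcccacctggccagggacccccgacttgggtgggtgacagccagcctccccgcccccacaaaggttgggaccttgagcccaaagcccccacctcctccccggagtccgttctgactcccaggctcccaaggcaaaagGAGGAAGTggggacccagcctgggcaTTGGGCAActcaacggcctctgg
MS4A3: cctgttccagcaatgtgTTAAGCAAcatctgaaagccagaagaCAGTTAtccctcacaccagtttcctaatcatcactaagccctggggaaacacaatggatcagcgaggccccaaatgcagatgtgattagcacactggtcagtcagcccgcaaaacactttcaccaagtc

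The letters searched on both strands were TTGCNNAA and its reverse complement TTNNGCAA for C/EBP, GAGGAAGT for PU.1, TAACNG for MYB, TGTGGT for RUNX, TGACGTCA for CRE and TGATGCAA for the C/EBP-ATF element, whose matches can share bases with those of C/EBP. In the 250 bases before the start, C/EBP letters occurred in 3 of the 5 member promoters and in 9.05% of all 35116 promoters of the table. For CEBPE all 250 of these bases lay in annotated exon of the gene. AZU1 held TTGGGCAA from 111 to 104 bases before its start, and PRTN3 held the same 8 letters from 62 to 55 bases before its start. That string, picked out after it was seen, occurred in 0.769% of all promoters. PRTN3 also held GAGGAAGT from 88 to 81 bases before its start, which 2.17% of promoters held. MS4A3 held TTAAGCAA from 233 to 226 bases before its start and TTGCATAA from 68 to 61, the latter inside annotated exon and not shown. MYB letters occurred in MS4A3 alone among the members and in 17.6% of promoters. RUNX letters (11.0% of promoters), CRE letters (1.65%) and C/EBP-ATF letters (0.772%) occurred in none of the 5 windows. So the rising AZU1 and the falling PRTN3 held the same C/EBP match, and the PU.1 match was in PRTN3 only. A match describes letters and no binding was measured.

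The serine protease cluster lies on chromosome 19, with AZU1 at chr19:825097-832018, PRTN3 at chr19:840960-848175 and ELANE at chr19:851014-856247 (GRCh38, GENCODE 29), all on the plus strand. AZU1, also called azurocidin or CAP37, is a heparin-binding antimicrobial protein that has lost protease activity. Its CPM was 1477, 1324 and 1376 in untreated libraries and 1756, 1798 and 2072 in monensin libraries. Each monensin library was above each untreated one. The means were 1393 ± 77.9 and 1875 ± 171 CPM (SD, n = 3), a log2 fold change of 0.43 (SE 0.06) with an adjusted p of 6.39e-06 by edgeR's quasi-likelihood test. With GC and length trends removed, the AZU1 rise was 0.12 (SE 0.04) with an edgeR adjusted p of 0.0105.

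PRTN3, or proteinase 3, is an elastase-like protease and the autoantigen of granulomatosis with polyangiitis. Its CPM was 1138, 1054 and 1024 in untreated and 613, 646 and 754 in monensin libraries. All monensin libraries lay far below the untreated ones. The means were 1072 ± 59.0 and 671 ± 73.6 CPM, a log2 fold change of -0.68 (SE 0.06, edgeR adjusted p = 1.26e-07), and -1.03 (SE 0.04, edgeR adjusted p = 2.79e-12) with GC and length trends removed.

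ELANE, neutrophil elastase, is the gene mutated in most severe congenital neutropenia. Its CPM was 879, 823 and 831 in untreated and 791, 837 and 910 in monensin libraries, with means of 844 ± 30.2 and 846 ± 59.8 CPM. The lowest and the highest value were both in monensin, so the groups overlapped, and the log2 fold change was 0.00 (SE 0.05, edgeR adjusted p = 0.957). ELANE was called lowered, by -0.35 (SE 0.03, edgeR adjusted p = 1.09e-07), once GC and length trends were removed.

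CTSG, cathepsin G, is a chymotrypsin-like protease encoded apart from this cluster at chr14:24573522-24576260 on the minus strand. Its CPM was 800, 764 and 692 in untreated and 768, 782 and 832 in monensin libraries, which overlapped. The means were 752 ± 54.8 and 794 ± 33.7 CPM, a log2 fold change of 0.08 (SE 0.05, edgeR adjusted p = 0.186). The CTSG result turned on the scaling: it was called raised by 0.16 (edgeR adjusted p = 0.00632) on total counts and lowered by -0.17 (edgeR adjusted p = 0.00198) with GC and length trends removed. It was also called raised, at 0.12 (edgeR adjusted p = 0.0459), without untreated library 1.

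Untreated library 1 was the highest of its group for each of AZU1, PRTN3, ELANE and CTSG, and monensin library 3 was the highest of its group for each. A ratio of counts within a library does not depend on library scaling. The AZU1 to PRTN3 count ratio was 1.30, 1.26 and 1.34 in untreated and 2.87, 2.78 and 2.75 in monensin libraries. It spread less within a group than either gene did, with means of 1.30 ± 0.0438 and 2.80 ± 0.0604 (SD, n = 3), a log2 difference of 1.11. AZU1 to ELANE went from 1.65 ± 0.0366 to 2.21 ± 0.0644, a log2 difference of 0.43. PRTN3 to ELANE went from 1.27 ± 0.0328 to 0.791 ± 0.0318, a log2 difference of -0.68. All 3 ratios were apart between the groups, and each had an exact two-sided permutation p of 0.10 (0.10 after Benjamini-Hochberg adjustment over the 3), the smallest that 3 against 3 allows. With GC and length trends removed the log2 differences were 1.14, 0.46 and -0.68. In these libraries AZU1 gained on ELANE and PRTN3 lost against it. The 3 ratios share their genes and are not independent of each other. The GC contents of the 3 genes were 63.4% to 66.8%. The cause of their unequal changes was not tested.

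**Figure D2:**
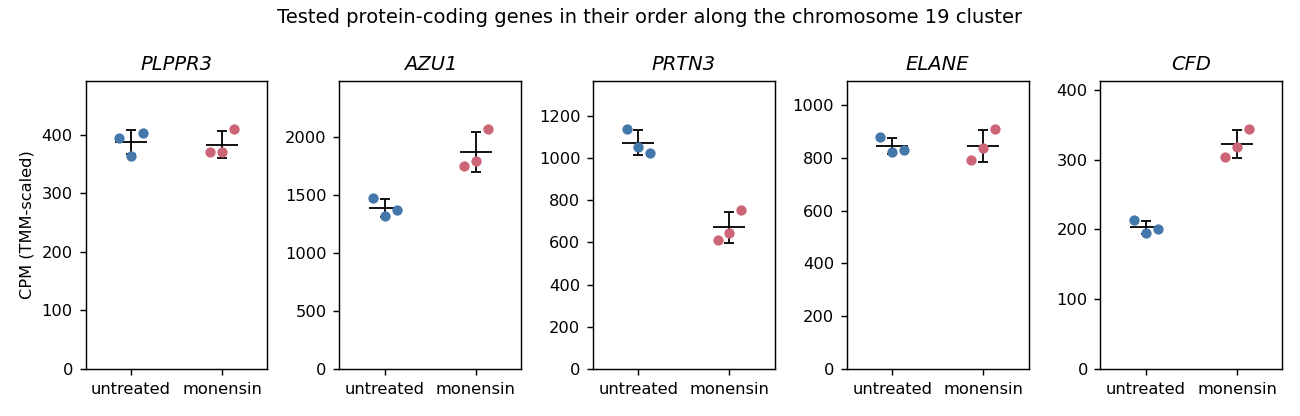
CPM (TMM-scaled) of the 5 tested protein-coding genes in their order along the chromosome 19 cluster, from PLPPR3 to CFD, in 3 untreated (blue) and 3 monensin (red) libraries. Points are libraries, dashes means and bars 1 SD. AZU1 and CFD lie higher in monensin, PRTN3 lies lower, and PLPPR3 and ELANE overlap.

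The genes on either side of the cluster gave a further frame. PLPPR3, 3119 bases from AZU1, had a log2 fold change of -0.02 (edgeR adjusted p = 0.791). CFD, the serine protease complement factor D, lies 3395 bases beyond ELANE and rose from 203 ± 9.26 to 322 ± 19.9 CPM (log2 fold change 0.67, SE 0.05, edgeR adjusted p = 9.85e-09). Along the 5 genes the order was thus not called, raised, lowered, not called and raised. With GC and length trends removed, PLPPR3 was called lowered at -0.28.

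MPO, myeloperoxidase, makes hypochlorous acid from peroxide and chloride and is the classical marker of the granulocytic lineage. It lies at chr17:58269856-58280935 on the minus strand. Its counts were 161, 177 and 155 in untreated and 112, 112 and 100 in monensin libraries, or 6.46, 7.59 and 6.27 against 4.36, 4.48 and 4.28 CPM. All monensin libraries were lower, at 64.7% of the untreated level. The log2 fold change was -0.63 (SE 0.11, edgeR adjusted p = 0.000129). The neighbouring peroxidase gene LPO, lactoperoxidase, 1337 bases away, went the other way, from 8.44 ± 0.868 to 29.6 ± 1.20 CPM (log2 fold change 1.81, SE 0.08, edgeR adjusted p = 1.87e-11). The adjacent peroxidase genes thus moved in opposite directions.

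LYZ, lysozyme, cleaves bacterial peptidoglycan and is made by granulocytes and monocytes alike. It lies at chr12:69348341-69354234 on the plus strand. Its CPM was 804, 775 and 793 in untreated and 318, 270 and 289 in monensin libraries, a wide and even gap. The means were 791 ± 14.3 and 292 ± 24.2 CPM, a log2 fold change of -1.44 (SE 0.05, edgeR adjusted p = 2.34e-12). The antisense gene AC020656.1 overlaps its exons with 28, 66 and 27 counts in untreated and 35, 29 and 8 in monensin libraries, few beside those of LYZ, and was not called (log2 fold change -0.78, edgeR adjusted p = 0.102). LYZ's share of gene counts was 0.0767% ± 0.00163 and then 0.0301% ± 0.00259.

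SRGN, serglycin, is the core protein whose chondroitin sulfate chains hold basic granule proteins. It lies at chr10:69088106-69104811 on the plus strand. Its CPM was 2847, 2892 and 2669 in untreated and 2038, 2056 and 2053 in monensin libraries. The 3 monensin libraries were nearly equal and all below the untreated ones, with means of 2802 ± 118 and 2049 ± 9.62 CPM, a log2 fold change of -0.45 (SE 0.04, edgeR adjusted p = 4.2e-08). SRGN stayed the most abundant member per length in both groups.

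MS4A3 is a tetraspan membrane protein found in granulocyte-monocyte progenitors. It lies at chr11:60056587-60071128 on the plus strand. Its CPM was 56.7, 55.6 and 52.9 in untreated and 20.8, 20.1 and 20.6 in monensin libraries, tightly grouped on both sides. The means were 55.1 ± 1.93 and 20.5 ± 0.337 CPM, a log2 fold change of -1.43 (SE 0.06, edgeR adjusted p = 5.87e-12). The nearest tested gene on one side, MS4A6A of the MS4A gene cluster, lies 100885 bases away. It fell less, by 0.44 on the log2 scale (edgeR adjusted p = 3.95e-06). On the other side TCN1, 190011 bases away, stood at 0.934 ± 0.118 and 0.785 ± 0.0392 CPM and was not called (log2 fold change -0.25, edgeR adjusted p = 0.389).

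SERPINB10, or bomapin, is an intracellular serine protease inhibitor of haematopoietic progenitors. It lies at chr18:63897174-63936111 on the plus strand. Its counts were 280, 264 and 296 in untreated and 65, 70 and 54 in monensin libraries, or 11.2, 11.3 and 12.0 against 2.53, 2.80 and 2.31 CPM. Every monensin library was far below the untreated ones, and the log2 fold change of -2.17 (SE 0.11, edgeR adjusted p = 7.68e-11) was the largest among the 10. Its exons overlap those of SERPINB2, the plasminogen activator inhibitor PAI-2, on the same strand. SERPINB2 also fell, and more, with 40.8 ± 0.677 CPM before and 6.06 ± 1.21 CPM after (a change of -2.76 on the log2 scale, SE 0.09, edgeR adjusted p = 1.11e-12). Reads of the shared part could not be told apart, so how the fall divides between the pair is uncertain. HMSD, on the other side, was not called (log2 fold change 0.02, edgeR adjusted p = 0.969).

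CEBPE encodes C/EBPε, the factor needed for the late, specific granule stage of neutrophils. It lies at chr14:23117304-23119616 on the minus strand. Its counts were low: 50, 42 and 45 in untreated and 65, 60 and 69 in monensin libraries, or 2.00, 1.80 and 1.82 against 2.53, 2.40 and 2.96 CPM. The groups were apart and the log2 fold change was 0.48 (SE 0.16, edgeR adjusted p = 0.017). The call was lost, with a smaller log2 fold change of 0.16 (edgeR adjusted p = 0.38), once GC and length trends were removed. It was also lost at a similar size with DESeq2 (0.47, adjusted p = 0.0841), and without untreated library 2 (0.45, edgeR adjusted p = 0.0512), untreated library 3 (0.45, edgeR adjusted p = 0.05) or monensin library 3 (0.39, edgeR adjusted p = 0.0651). SLC7A8, an amino acid transporter gene 5678 bases away, rose from 0.521 ± 0.142 to 2.32 ± 0.0465 CPM (log2 fold change 2.15, edgeR adjusted p = 5.55e-07).

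The other flanking genes varied from locus to locus. On both sides of LYZ the nearest tested genes fell, CPSF6 by 0.47 and YEATS4 by 0.55 on the log2 scale (edgeR adjusted p = 9.7e-08 and 3.98e-07), less than LYZ itself. Beside SRGN, KIF1BP fell by 0.54 (edgeR adjusted p = 1.25e-05), and VPS26A had a log2 fold change of -0.01 (edgeR adjusted p = 0.917). Beside CTSG, SDR39U1 rose by 0.30 and STXBP6 fell by 1.04 (edgeR adjusted p = 0.000235 and 2.07e-06), 130616 and 233395 bases away. C14orf119, next to CEBPE, rose by 0.28 (edgeR adjusted p = 0.000388), and TSPOAP1, beyond MPO, was not called (0.04, edgeR adjusted p = 0.754). No common direction ran through the members' neighbours.

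**Figure D3:**
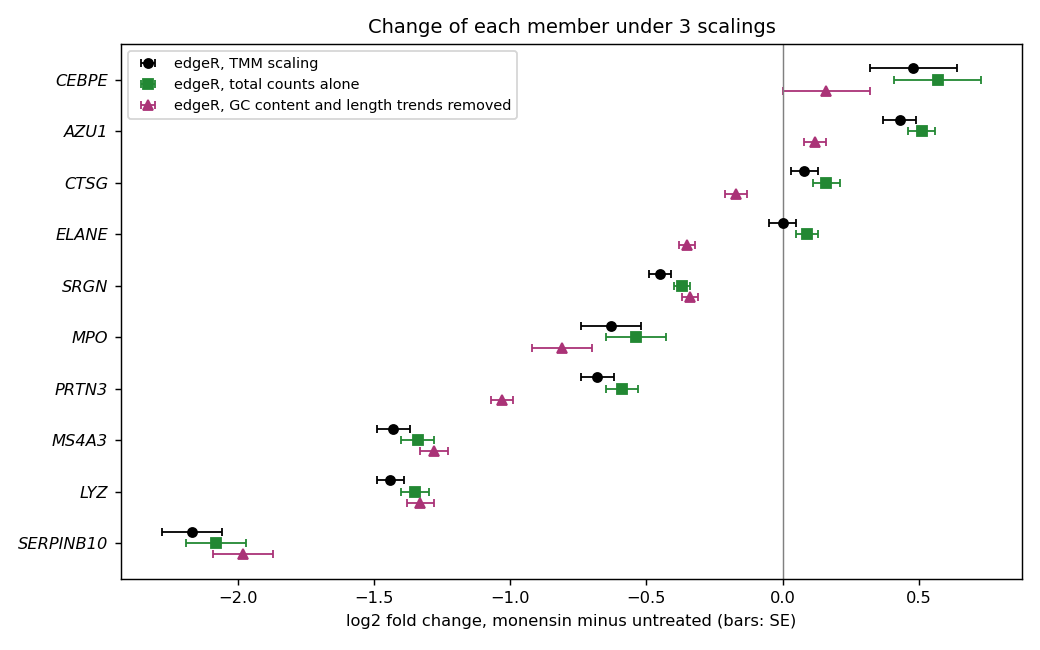
Log2 fold change (monensin minus untreated) of each member with its SE under edgeR with TMM scaling (black circles), total counts (green squares) and GC and length trends removed (purple triangles). SERPINB10, LYZ, MS4A3, PRTN3, MPO and SRGN stay left of 0 under all 3; ELANE and CTSG cross 0.

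The members' changes were read against base composition, because fold changes followed GC content across all genes. With tested genes split by GC content into 10 classes of like size, the median log2 fold change was -0.20 in the lowest class and 0.24 in the highest, which ran from 61.4% to 76.8% GC. ELANE (66.8%), PRTN3 (66.4%), AZU1 (63.4%) and CEBPE (62.9%) belonged to that highest class. SRGN (38.1%) was in the lowest, SERPINB10 (38.6%) and MS4A3 (40.8%) in the next, and LYZ (41.5%) in the one above it. After the trends with GC content and length were removed, 8 members were called lowered and 1, AZU1, raised, beside 32.1% and 35.7% of all tested genes. On total counts, 6 were lowered and 3 raised, beside 27.8% and 39.8% of all tested genes. LYZ, MS4A3, SERPINB10, PRTN3, MPO and SRGN were called lowered under each of these scalings. Whether the GC trend arose in the cells or in the libraries was not tested.

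**Figure D4:**
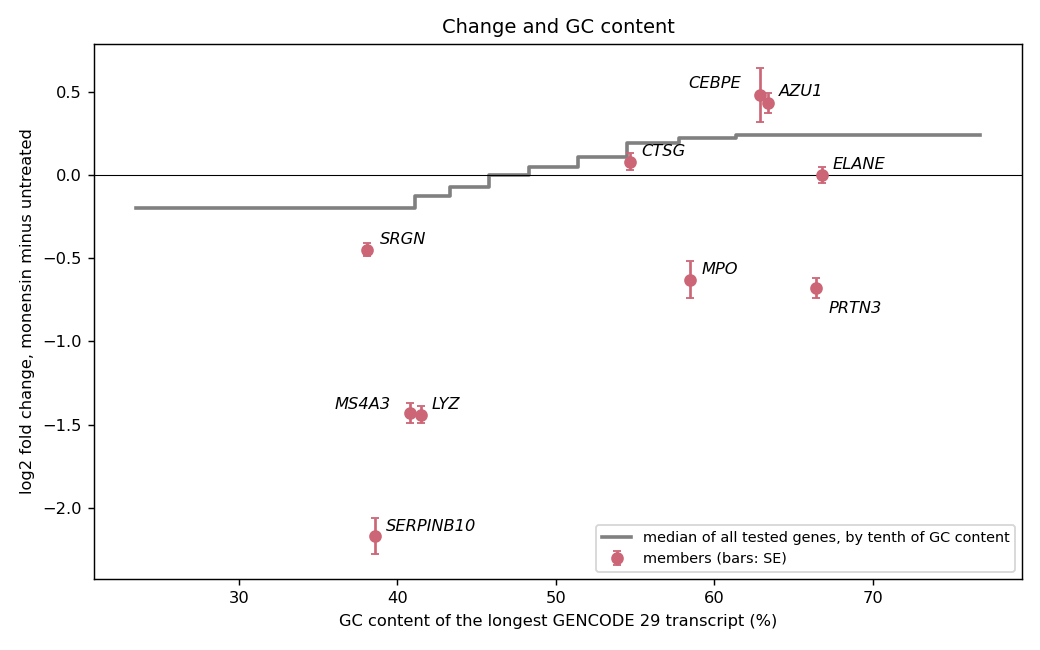
Log2 fold change of each member with its SE (red) against the GC content of its longest transcript, with the median of all tested genes in each of 10 classes of GC content (grey steps, from -0.20 to 0.24). PRTN3, MPO, ELANE, SRGN and CTSG lie below the step at their GC content, and MS4A3, LYZ and SERPINB10 lie more than 1 log2 unit below theirs. AZU1 and CEBPE lie above theirs.

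The genes that serve these proteins were described by lists, with counts called by the same fit. Of 11 further azurophil granule genes, 6 were tested, of which 3 rose and 3 fell (median log2 fold change 0.37). CST7, cystatin F, which inhibits the cathepsins that process granule proteases, rose from 1.18 ± 0.207 to 12.3 ± 0.417 CPM (edgeR adjusted p = 3.78e-12), and CD63, a granule membrane tetraspanin, from 286 ± 9.97 to 520 ± 14.6 CPM (edgeR adjusted p = 5.85e-11). The closely related ribonuclease genes RNASE2 and RNASE3, whose reads may be split uncertainly, fell by 0.48 and 0.37 on the log2 scale (edgeR adjusted p = 1.4e-07 and 0.0108), and the RNASE3 call was lost without monensin library 1. CTSC, the peptidase that activates ELANE, PRTN3 and CTSG, fell slightly, with 235 ± 8.76 and 215 ± 3.34 CPM (-0.12 on the log2 scale, edgeR adjusted p = 0.0154), but was called raised at 0.20 with GC and length trends removed and was not called on total counts (-0.04, edgeR adjusted p = 0.432) or, at an equal -0.12, without untreated library 2 (edgeR adjusted p = 0.0574). The defensin genes DEFA1, DEFA1B and DEFA3 had no counts in any library. With GC and length trends removed the split of this list was 4 raised and 2 lowered.

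The specific and gelatinase granule list, proteins of later neutrophil stages, had 12 of 22 genes tested, with 7 raised and 3 lowered (median 0.60). CHI3L1, a secreted chitinase-like protein, rose from 623 ± 26.3 to 1469 ± 74.3 CPM (edgeR adjusted p = 2.82e-12). MMP25, a membrane-bound metalloprotease, rose by 1.52 and CYBB, the catalytic subunit of the phagocyte oxidase, by 1.32 on the log2 scale (edgeR adjusted p = 8.67e-08 and 3.32e-09). The defining genes LTF, LCN2 and CRISP3, with 5 others, had no counts in any library in either group.

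Of the regulators of granule genes, 15 of 16 were tested, with 7 raised and 7 lowered (median -0.08). Removing GC and length trends changed this to 4 raised and 7 lowered. CEBPB, the emergency granulopoiesis factor, rose from 29.7 ± 1.24 to 89.6 ± 2.21 CPM (edgeR adjusted p = 8.14e-13), and CEBPA, the factor that opens myeloid commitment, from 499 ± 10.1 to 799 ± 6.18 CPM (edgeR adjusted p = 2.43e-10). CBFB, the partner of the RUNX factors, fell from 215 ± 2.17 to 131 ± 7.81 CPM and LEF1, a Wnt pathway factor, from 6.93 ± 0.370 to 4.15 ± 0.426 CPM (edgeR adjusted p = 2.26e-09 and 2.72e-05). SPI1, which encodes PU.1, rose by 0.34 (edgeR adjusted p = 8.34e-06), a call lost with GC and length trends removed (0.04, edgeR adjusted p = 0.341). MYB fell by 0.13 (edgeR adjusted p = 0.00563), a call lost on total counts, while its sign turned to 0.03 and was not called (edgeR adjusted p = 0.426) with the trends removed. RUNX1, named after its values were seen, had a log2 fold change of -0.27 (edgeR adjusted p = 9.68e-05). With TMM scaling, factors known to act on these promoters thus moved both ways, as the members did, and no link between the changes was tested.

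For haem synthesis and the folding of MPO, all 14 genes were tested, with 8 raised and 4 lowered (median 0.21). ALAS1, the first enzyme of haem synthesis, rose from 69.7 ± 1.37 to 159 ± 1.26 CPM (edgeR adjusted p = 2.41e-12), and CALR, the chaperone calreticulin that binds new MPO, by 0.46 on the log2 scale (edgeR adjusted p = 1.55e-07). CPOX, a later haem enzyme, and ABCB10, a mitochondrial transporter, fell by 0.74 and 0.89 (edgeR adjusted p = 1.01e-08 and 5.33e-10). MPO itself fell, as given above.

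For chondroitin sulfate synthesis, which builds the chains carried by SRGN, 13 of 23 tested genes rose and 5 fell (median 0.18). CHPF2 and CHPF, which polymerise the chain, rose by 1.36 and 0.92 (edgeR adjusted p = 6.62e-12 and 4.39e-10), CSGALNACT2, which starts it, by 0.69, and UGDH, which makes its sugar precursor, by 0.64 on the log2 scale (edgeR adjusted p = 8.07e-07 and 4.59e-07). With GC and length trends removed the split was 9 raised and 6 lowered. The 5 that fell with TMM scaling were CHST11, FAM20B, CHST3, CHSY1 and CSGALNACT1, named after their values were seen. CHST11, FAM20B and CHSY1 had log2 fold changes of -0.45, -0.44 and -0.25 (edgeR adjusted p = 3.33e-07, 5.65e-07 and 0.00039). SRGN thus fell while genes for its chains moved both ways.

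A list of protease inhibitors, serpins and cystatins among them, had 11 of 21 genes tested, with 6 raised and 3 lowered (median 0.54). Of the 6 that rose, 4 were cystatins (CST7, CSTB, CSTA and CST3), which inhibit cysteine cathepsins and not the serine proteases ELANE, PRTN3 and CTSG, and the other two were SERPINB1 and SERPINB6. CSTA, CST3, SERPINB6 and SLPI are named after their values were seen. SERPINB1, the leukocyte inhibitor of ELANE, PRTN3 and CTSG, rose from 38.4 ± 1.62 to 55.8 ± 0.609 CPM (edgeR adjusted p = 1.84e-07). CSTB rose by 0.82 on the log2 scale (edgeR adjusted p = 1.71e-10). SERPINB8 fell from 206 ± 9.93 to 76.0 ± 1.16 CPM (edgeR adjusted p = 7.77e-13), so SERPINB10 was not alone in its family in falling. SLPI fell too, from 41.1 ± 3.13 to 27.6 ± 3.16 CPM (edgeR adjusted p = 7.48e-06), as did SERPINB2, given above. The inhibitors thus moved both ways.

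Among 24 genes of granule sorting and release, all tested, 10 rose and 7 fell (median 0.16), and 11 rose and 4 fell with GC and length trends removed. HPS1, of a complex for lysosome-related organelles, rose by 0.90, and SORT1, a sorting receptor, by 0.61, while AP3B1, of the adaptor that carries ELANE to granules, fell by 0.55 on the log2 scale (edgeR adjusted p = 8.97e-11, 4.88e-05 and 3.75e-08). Relatives of the members by family were tested for 11 of 25 genes, with 9 raised and 1 lowered (median 0.68). MS4A14 and MS4A7, of the MS4A3 family, rose by 2.02 and 1.40 (edgeR adjusted p = 8.65e-13 and 5.98e-11), against the fall of MS4A3. In the same family MS4A6A fell, as given above. MS4A4A, named after its values were seen, was not called (log2 fold change -0.04, edgeR adjusted p = 0.767). Several of the 9 raised relatives, the C/EBP genes among them, also stand in other lists.

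**Figure D5:**
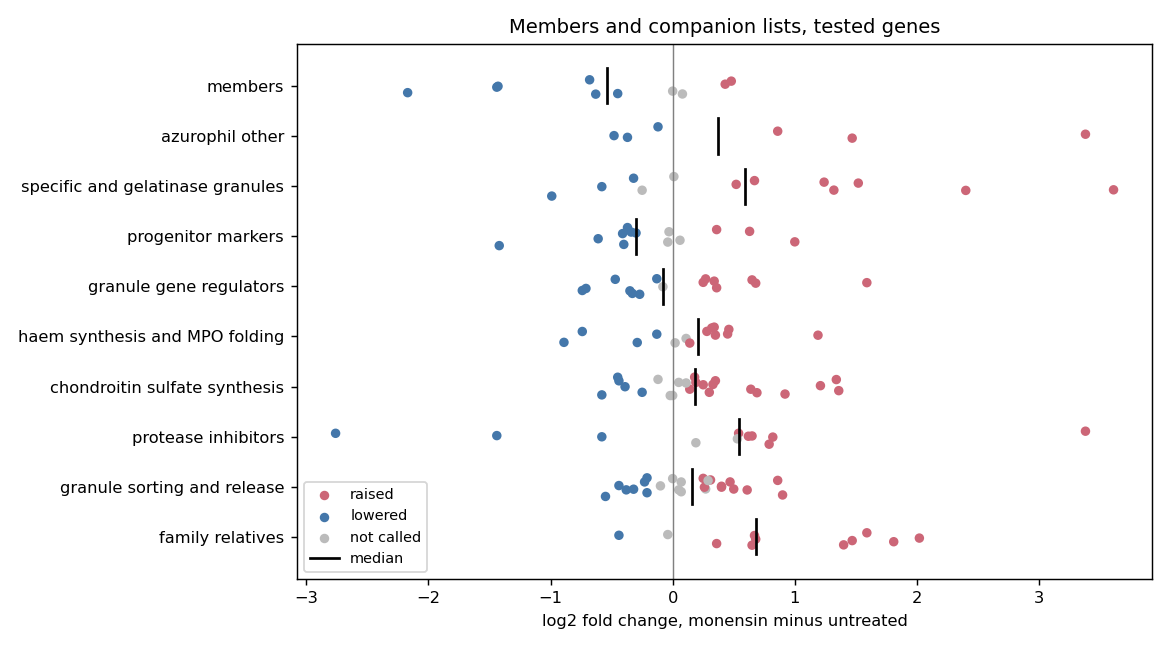
Log2 fold change (monensin minus untreated) of each tested gene of the member set and of 9 companion lists, 1 point a gene (red raised, blue lowered, grey not called; vertical jitter has no meaning), with the list median as a black bar. The members' median is -0.54, below that of each companion list shown, which run from -0.30 to 0.68.

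Progenitor markers were tested for 13 of 14 genes, with 3 raised and 7 lowered (median -0.30). CD38 fell from 86.5 ± 6.12 to 56.5 ± 2.84 CPM and FUT4, which makes the CD15 epitope, from 231 ± 7.56 to 174 ± 9.14 CPM (edgeR adjusted p = 1.7e-07 and 1.06e-06). The receptor genes CSF2RA, for GM-CSF, and CSF3R, for G-CSF, rose by 1.00 and 0.63 on the log2 scale (edgeR adjusted p = 5.79e-10 and 1.94e-08).

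Markers of other cell states moved beside these results. Of 16 monocyte and macrophage markers, 11 were tested, 7 rose and none fell (8 and 1 with GC and length trends removed), and their summed level was 535 to 598 CPM in untreated and 691 to 727 CPM in monensin libraries. CD14, the lipopolysaccharide co-receptor, rose from 0.480 ± 0.0691 to 2.37 ± 0.289 CPM, ITGAX, the integrin CD11c, by 1.67, CD68 by 1.10 and FCGR1A by 0.52 on the log2 scale (edgeR adjusted p = 2.55e-07, 2.12e-11, 7.01e-07 and 2.46e-06). The 4 tested markers not called were ITGAM, CSF1R, CD36 and VCAN, named after their values were seen. Their log2 fold changes were -0.03, -0.03, 0.05 and 0.14. FCN1 had no counts, and CD163, MRC1, FCGR3A and MSR1, also named after their values were seen, did not pass the filter. The sum rose mostly through ITGAX, at 37.0 ± 4.63 and then 118 ± 6.65 CPM. Mature neutrophil markers were tested for 2 of 8 genes, CSF3R and CXCR2, of which the first rose and the other fell, by 0.37 (edgeR adjusted p = 1.89e-05). Their sum was 134 to 141 and then 175 to 193 CPM, and FCGR3B, ALPL, MME and CEACAM8 were at 0. None of 11 eosinophil, basophil and mast cell markers was tested (0.241 to 0.515 and then 0.514 to 0.662 CPM, EPX, CLC, CPA3 and HDC at 0). Of 11 lymphoid markers, 4 were tested and 3 rose (14.6 to 17.7 and then 31.6 to 34.0 CPM, CD3E, CD3G, GNLY and KLRD1 at 0), mostly through NKG7 at 12.9 ± 1.44 and 28.1 ± 0.878 CPM (edgeR adjusted p = 3.67e-09). Of 11 erythroid and megakaryocyte markers, 1 was tested and rose (0.729 to 1.21 and then 2.53 to 2.88 CPM, 9 at 0, HBB and PF4 among them). The part of these shifts in the members' changes was not tested.

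The authors' deposited table of 2410 regulated genes, in which each absolute log2 fold change is at least 1.00, listed 3 of the 10 members. LYZ stood at -1.46, MS4A3 at -1.45 and SERPINB10 at -2.19 in the authors' deposited table. The other 7 members were not in it.

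The libraries held 22975888 to 25710513 counts in genes, so that 3 counts equalled 0.117 to 0.129 CPM and even CEBPE stood well above that level. Whether the replicates were grown as separate cultures is not stated, and the p-values take the spread among the samples at hand as their error, and that spread may be technical only. TMM factors were 0.9662 to 0.9749 in untreated and 1.017 to 1.038 in monensin libraries, and on total counts the median log2 fold change of all tested genes was 0.11.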

How the data were processed

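RNA from 3 untreated and 3 monensin samples of THP-1 was analysed from the read counts per gene that the authors deposited, unnormalized. The submitters' processing notes name HISAT2 2.1.0 and HTSeq 0.11.1 beside Trimmomatic 038, bcl2fastq and DESeq2 1.22.2, with the build hg38 (GRCh38); the annotation release and the strand setting in counting are not given in the sources used here. Per the labels' protocols, the library kit marks strand. The authors also deposited log2 fold changes for a list of regulated genes, which are quoted only where that table is named. Tally lines of reads assigned to no gene (19.08% to 19.79% in untreated, 21.18% to 21.97% in monensin libraries) were left out of library sizes and tests.

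Positions, exonic lengths and GC content came from GENCODE 29, which held 99.79% of the gene identifiers. All 238 list entries were matched. The test was that of edgeR 4.0.16 under R 4.3.3: filterByExpr by group, TMM scaling, glmQLFit and glmQLFTest with treatment as the only term, and Benjamini-Hochberg adjustment over 16542 genes, called at an adjusted p under 0.05. The scripts were tested on simulated data. CPM are TMM-scaled, and RPKM divide them by exonic length. Alternatives were RLE size factors, total counts, leaving out the filter or raising it to 1 CPM in 3 libraries with 50 counts in all, a replicate block, GC and length trends removed by splines per library, DESeq2 1.42.0, each library left out, and an adjusted p under 0.01. GC content and length were known for 99.89% of tested genes.

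The members and lists were chosen with earlier results of these data known. Named were all 10 members, up to 4 called genes per list with the largest absolute log2 fold change at an average log2 CPM of at least 2, the nearest tested protein-coding neighbours, and CTSC, SPI1, CEBPA, MYB, SERPINB1, CD14 and CD68. Some items that this rule names are not reported here. No 2 replicates of a group held identical counts, and they differed by more than counting noise (chi-square per degree of freedom 1.92 to 5.15).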

Additional observations from a re-analysis of the deposited data

How the results depend on the processing

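The count of 6 lowered members was 6 under each alternative except the 2 with GC and length trends removed, where it was 8. The count of 2 raised members was 1 with GC and length trends removed (with or without the replicate block). It was also 1 with DESeq2 and 1 at an adjusted p under 0.01, and 1 to 3 when each library was left out. Of all 16542 tested genes, 4844 rose and 5206 fell with DESeq2, and 4711 rose and 4781 fell at an adjusted p under 0.01. Over 15 alternatives the 10 members gave 150 results, of which 137 kept direction and call; the 13 others fell on ELANE, CTSG and CEBPE. With GC and length trends removed, and likewise with the replicate block added, the log2 fold changes turned to -0.35 for ELANE, -0.17 for CTSG, 0.20 for VPS26A, 0.20 for CTSC and 0.03 for MYB; a change of sign in which neither fit made a call was not counted as a turn. Under the same 2 alternatives, 4 regulators rose in place of 7 and 4 sorting and release genes fell in place of 7. At an adjusted p under 0.01, 1 further azurophil gene fell in place of 3. Leaving out each library, 1 to 2 family relatives fell, with 2 without untreated library 1.

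The replicate numbers gave no sign of pairing: same-numbered samples had correlations of -0.314 to 0.217 in their deviations over 11445 genes. Differently numbered samples ran from -0.345 (untreated 2 with monensin 3) to 0.373 (untreated 1 with monensin 3). These deviations cannot settle how the samples were handled. With the replicate block, 5515 genes rose and 5435 fell, in place of 5638 and 5570, and 2 members rose and 6 fell. Counts of 42 to 69 limit CEBPE, and 3 samples a group limit the exact tests of the count ratios to a p of 0.10.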
